A study of Mus musculus with 8 samples.

Results

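The integrin and laminin genes described are 36 rows of the count table, of 55536 in all, whose symbol names an integrin α subunit, one of the numbered integrin β subunits or a laminin α, β or γ chain. They comprise 26 integrin genes (18 α and 8 β) and 10 laminin genes (5 α, 3 β and 2 γ), and each was taken by its symbol. Their RNA was compared in MIN6 cells, a mouse insulin-producing β-cell line, labelled wild type. The control cells were transfected with pcDNA 3 empty vector and the other cells with pGloMyc-Klf4, which carries the gene of the zinc-finger transcription factor Klf4. Both groups received Lipofectamine 3000, a lipid transfection reagent, for 48 h. Each group had 4 libraries, described as biological replicates, with replicates 1 and 2 in batch 1 and replicates 3 and 4 in batch 2. By their names the 2 plasmids differ in backbone as well as in Klf4, so the backbone and Klf4 cannot be told apart. MIN6 is a single cell line, and the share of cells that took up plasmid was not analysed here. In a bulk library, more cells with a transcript and more transcript per cell cannot be told apart.

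Integrins are receptors at the cell surface made of 1 α and 1 β subunit, and the pair decides what the receptor binds. Some pairs bind laminins, others collagens, others the Arg-Gly-Asp (RGD) sequence of fibronectin and vitronectin, and a further set is known from leukocytes. Laminins are secreted trimers of 1 α, 1 β and 1 γ chain that form the sheet to which epithelial cells and islet cells attach in a basement membrane. In islets, β-cells face the laminins of the vessel basement membrane and bind them through integrins with the β1 subunit. A laminin with the α3 and β3 chains is that of skin and other stratified epithelia, where α6β4 integrin anchors it at hemidesmosomes.

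Libraries held 45417853 to 52731176 counts. Klf4 checked the labels: it lay at 36.1 to 42.8 CPM (counts relative to the scaled total of each library) in control and at 4532 to 5853 CPM in Klf4 libraries, endogenous and plasmid transcripts together. Of 18266 genes tested, 21.1% were called higher and 15.5% lower in Klf4-transfected cells, by an adjusted p under 0.05 in edgeR's quasi-likelihood test with a term for batch. Of these calls 57.7% were higher, and 72.8% when the scaling was set from genes of high level. The 7 β-cell markers, among them the insulin genes, summed to 29970 to 37853 CPM in control and 28149 to 38265 CPM in Klf4 libraries. The defining transcripts of the labelled cell type were therefore abundant in both groups. Of the 7, 2 fell by small amounts and none rose. On the log2 scale Iapp fell by 0.07, with overlapping groups, and G6pc2 by 0.13, without overlap. The extraction note in the labels speaks of islets, while every sample is named as MIN6.

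After transfection of Klf4, 16 of the 30 integrin and laminin genes that passed the filter on low counts rose and 2 fell. The 16 were 53.3% of the tested members, beside 21.1% of all tested genes, and the 2 were 6.67%, beside 15.5%. In either direction 36.6% of all tested genes were called. The largest rises were in Itga5, Itgb4, Itgb7, Lamb3 and Itgb3, each with a log2 fold change of at least 5, which 1.74% of tested genes were called with. In 11 members the rise was at least 1 on the log2 scale, called in 8.5% of tested genes. All 4 Klf4 libraries lay above all 4 control libraries in 15 of the 30 members (17.2% of tested genes) and below them in 2 (8.93%). The median log2 fold change was 0.52 over these 30 members and -0.01 over all tested genes. These counts are descriptions, since 5 of the 30 reached the filter level of 0.204 CPM in every Klf4 library but not in every control library, and 2 of those reached it in no control library. The other 6 members, Itga8, Itgad, Itgam, Itgax, Lama2 and Lama3, were below the filter with 0 to 16 counts per library. Exons of 12 of the 36 genes share bases with another gene, and without the strand setting such counts are uncertain. Among the called members these are Itgb4, Itgav (634 bases with Gm13684), Lamc3 (382 with Gm13441) and Itga7 (9 with Mettl7b), whose partners had at most 20 counts in any library.

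**Figure D1:**
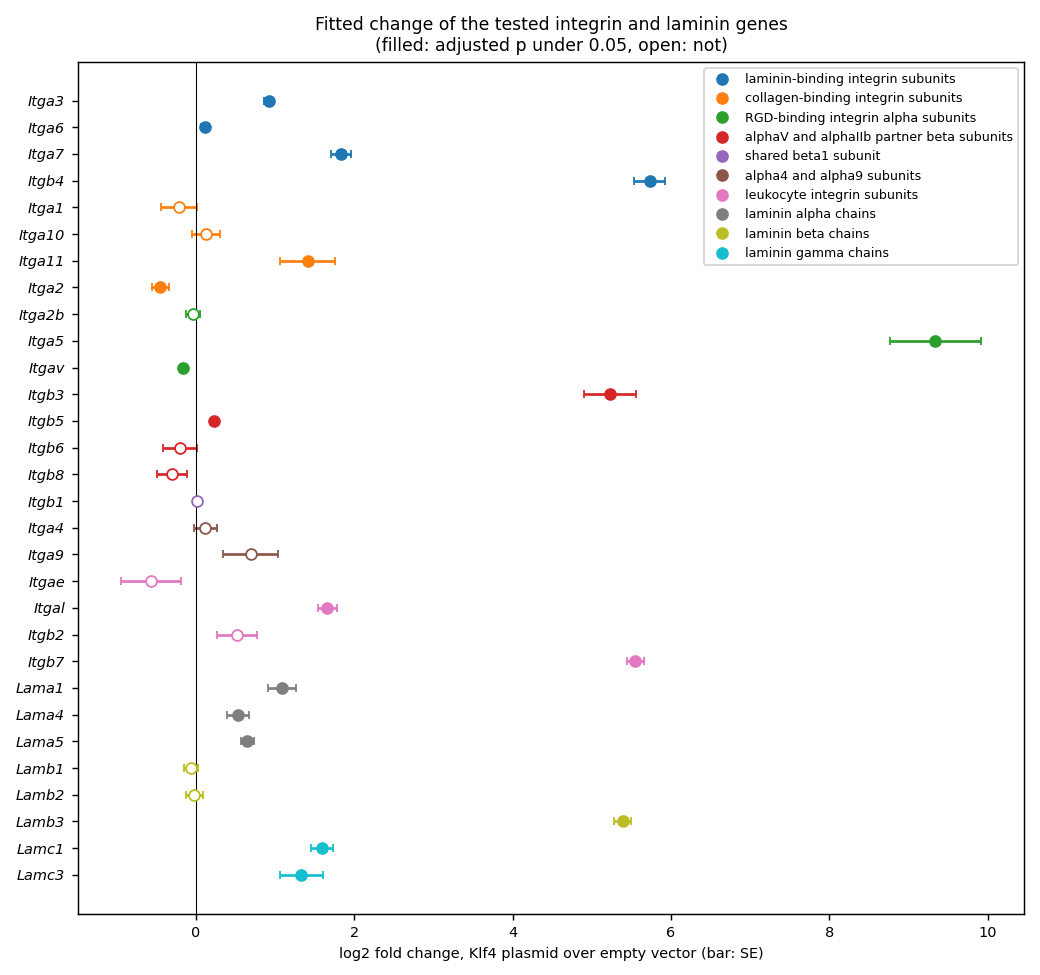
Log2 fold change of Klf4-transfected over control libraries (x axis, bar: SE) for the 30 tested integrin and laminin genes (y axis), coloured by role, with filled points at an adjusted p under 0.05. The points of Itgb3, Itgb4, Itgb7 and Lamb3 lie above 5, while Itgb1, Lamb1 and Lamb2 sit near 0; the position of Itga5 depends on the small count edgeR adds, because its control counts were 0.

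**Figure D2:**
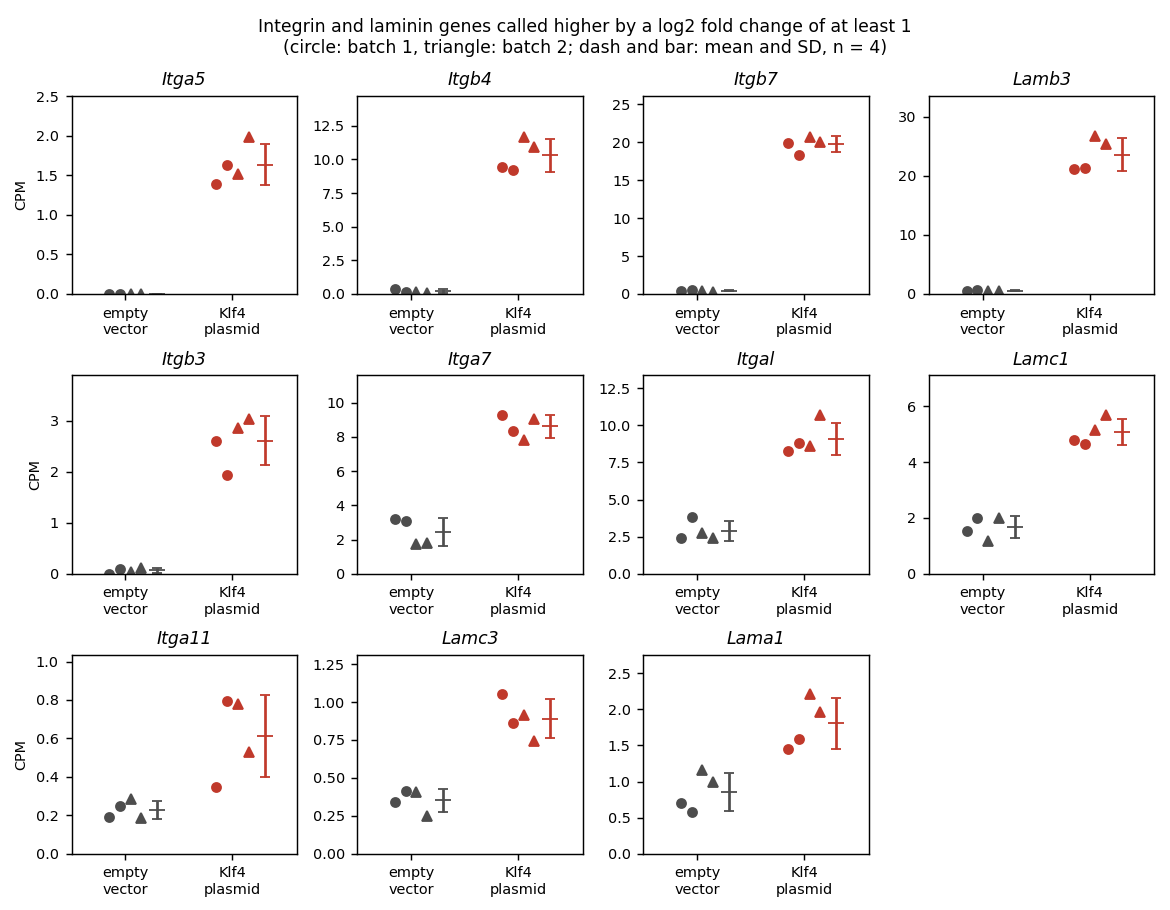
CPM (y axis, linear and from 0) in each control and Klf4 library for the 11 members that rose by at least 1 on the log2 scale, with the mean and SD (n = 4) beside the points. Every Klf4 library lies above every control library in each panel.

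Klf4 binds GC-rich boxes of the CACCC type, so the bases before the start sites of the 3 largest rises with an entry in the RefSeq promoter table (GRCm38.p6) are shown, with Itgb1, which did not pass the test, for comparison. Each run is the 250 bases before the start, read 5′ to 3′ on the gene's strand, and capitals mark CACCC or its reverse complement GGGTG. Itga5 is chr15:103366792-103367041 (minus strand), Itgb7 is chr15:102231936-102232185 (minus strand), Lamb3 is the first of its 2 listed starts, chr1:193301744-193301993 (plus strand), and Itgb1 is chr8:128685404-128685653 (plus strand).
Itga5: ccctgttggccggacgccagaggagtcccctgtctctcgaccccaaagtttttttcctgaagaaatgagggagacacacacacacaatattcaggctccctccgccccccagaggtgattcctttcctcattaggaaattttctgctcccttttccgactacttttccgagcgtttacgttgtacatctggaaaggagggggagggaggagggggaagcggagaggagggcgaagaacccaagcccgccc
Itgb7: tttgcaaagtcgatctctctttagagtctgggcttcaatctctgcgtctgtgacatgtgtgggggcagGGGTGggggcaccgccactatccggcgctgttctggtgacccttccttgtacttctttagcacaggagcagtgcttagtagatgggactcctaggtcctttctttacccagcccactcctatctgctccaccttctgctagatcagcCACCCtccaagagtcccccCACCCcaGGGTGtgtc
Lamb3: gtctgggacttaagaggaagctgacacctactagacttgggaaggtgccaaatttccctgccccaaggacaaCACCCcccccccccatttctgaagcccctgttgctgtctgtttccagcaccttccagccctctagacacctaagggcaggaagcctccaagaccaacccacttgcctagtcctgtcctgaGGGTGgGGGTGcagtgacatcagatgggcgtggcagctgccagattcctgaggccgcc
Itgb1: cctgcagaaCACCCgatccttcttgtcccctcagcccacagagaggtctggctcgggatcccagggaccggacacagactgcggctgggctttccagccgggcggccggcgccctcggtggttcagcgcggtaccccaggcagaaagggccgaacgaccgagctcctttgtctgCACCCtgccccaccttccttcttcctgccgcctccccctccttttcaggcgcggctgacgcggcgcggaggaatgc

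The motif was found 4 times before Itgb7, 3 times before Lamb3, 2 times before Itgb1 and not at all before Itga5. Of the other members in the table, Itga4, which did not pass the test, also had 4 matches and Itgam, which was not tested, had 3, while the windows of Itga3, Itga11 and Lama5, which rose, had 0. Over the 32851 windows of the same length in the table, 52.0% held at least 1 match, 6.92% at least 3 and 2.14% at least 4. Of the 36 genes 23 were in the table, with 26 windows, 16 of which held a match. The Lamb3 window lies inside the GENCODE span of the gene, 193207699 to 193343878, and the start in use was not determined for any member. The match is a description of these letters, and Klf4 binding was not measured.

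Itga3, Itga6, Itga7 and Itgb4, the subunit genes of laminin receptors other than the shared Itgb1, rose by unequal amounts, while Itgb1 did not pass the test. Itgb4 (ENSMUSG00000020758, chromosome 11, 115974709 to 116008412, plus strand, GRCm38) encodes β4, the subunit with a long cytoplasmic tail that pairs only with α6 and links hemidesmosomes to keratin filaments. It lay at 0.404, 0.164, 0.122 and 0.0829 CPM in control replicates 1 to 4 and at 9.41, 9.19, 11.7 and 10.9 CPM in Klf4-transfected replicates 1 to 4. The control libraries held 4 to 19 counts and the Klf4 libraries 416 to 613, with no overlap. The ratio of the group means was 53.3 (edgeR log2 fold change 5.73 ± 0.20 SE, adjusted p 1.94e-16), and without control replicate 1 the log2 fold change was 6.38. Its exons share 537 bases with those of B230344G16Rik on the other strand, a gene with 2 to 8 counts in control and 7 to 13 in Klf4 libraries.

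Its partner Itga6 was expressed in both groups and differed little. Itga6 lay at 72.5, 71.3, 60.3 and 60.1 CPM in control and at 76.6, 71.6, 69.0 and 66.4 CPM in Klf4 libraries. The groups overlapped, and the call (edgeR log2 fold change 0.11 ± 0.04 SE, adjusted p 0.0237) was lost without the batch term (0.351) and in 5 of the 8 fits with 1 library omitted. These left out control replicate 3 or 4 or Klf4-transfected replicate 1, 3 or 4, with log2 fold changes of 0.07 to 0.10 and adjusted p of 0.0631 to 0.143. Per kilobase of exonic length, Itgb4 was 0.362% ± 0.241 of Itga6 in control and 18.8% ± 3.08 in Klf4 libraries (SD, n = 4).

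Itga3 and Itga7 encode the other laminin-binding α subunits, α3 and α7, both of which pair with β1. Itga3 rose from 53.2, 49.6, 47.0 and 48.5 CPM to 84.8, 83.6, 102 and 106 CPM (edgeR log2 fold change 0.92 ± 0.06 SE, adjusted p 5.56e-12). Itga7, known from muscle, rose from 3.21, 3.10, 1.72 and 1.80 CPM to 9.27, 8.35, 7.82 and 9.04 CPM (edgeR log2 fold change 1.83 ± 0.13 SE, adjusted p 4.48e-11). Neither gene had overlapping groups. Itga3 became the α subunit gene of highest level per length: it held 26.6% ± 0.725 of the summed integrin α level in control and 39.6% ± 3.32 in Klf4 libraries (SD, n = 4), while Itgav went from 41.1% ± 2.31 to 28.9% ± 1.38. This order rests on the exonic lengths used, 5710 bases for Itga3 and 10744 for Itgav. In CPM, Itgav remained higher in Klf4 libraries, at 129 ± 4.51 against 94.1 ± 11.6 for Itga3 (SD, n = 4).

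Itgb1 encodes β1, the partner of most α subunits, and was the member of highest level per length in both groups, at 65.0 ± 2.26 CPM per kilobase in control and 65.6 ± 2.71 in Klf4 libraries (SD, n = 4). Its library values were 272, 273, 253 and 264 CPM in control and 271, 273, 276 and 251 CPM in Klf4-transfected cells. The groups overlapped and the test was not passed (edgeR log2 fold change 0.01 ± 0.03 SE, adjusted p 0.772). The next highest in control were Itgb5 and Itgav, at 13.8 ± 0.566 and 13.4 ± 0.247 CPM per kilobase, values that do not differ beyond their spread.

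Among the subunits of RGD-binding receptors, 2 went from little or no signal to a clear one. Itga5 (ENSMUSG00000000555, chromosome 15, 103344286 to 103366763, minus strand) encodes α5, which with β1 forms the classical fibronectin receptor. It had 0 counts in every control library and 72, 74, 80 and 105 counts in Klf4-transfected replicates 1 to 4, that is 1.39, 1.63, 1.52 and 1.99 CPM. Against a floor of 3 counts per control library it was at least 26.3-fold higher. Its fitted log2 change of 9.34 (edgeR, SE 0.58, adjusted p 1.02e-10) depends on the small count that edgeR adds and is no bound. It was 8.74 in DESeq2 and 7.30 in limma-voom. Itga5 made up 0.798% ± 0.111 (SD, n = 4) of the summed α level per length in Klf4 libraries.

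Itgb3 (ENSMUSG00000020689, chromosome 11, 104608000 to 104670476, plus strand) encodes β3, which joins αV in the vitronectin receptor and αIIb in the platelet fibrinogen receptor. It had 0, 5, 2 and 6 counts in control and 135, 88, 150 and 160 in Klf4 libraries. In CPM this was 0, 0.103, 0.0406 and 0.124 against 2.61, 1.94, 2.85 and 3.03, with no overlap (edgeR log2 fold change 5.23 ± 0.33 SE, adjusted p 8.91e-12). Its partner genes did not rise. Itgav fell from 141, 142, 146 and 146 CPM to 127, 129, 135 and 124 CPM (edgeR log2 fold change -0.16 ± 0.03 SE, adjusted p 0.000195). Itga2b, which encodes αIIb, was at 6.20 ± 0.749 CPM in control and 6.05 ± 0.859 CPM in Klf4 libraries (SD, n = 4), an edgeR log2 fold change of -0.04 ± 0.09 (SE, adjusted p 0.793). Of the 4 platelet and megakaryocyte markers examined, none passed the filter, Pf4 was at 0 in every library, and their sum was 0.0414 to 0.226 CPM in control and 0.247 to 0.387 CPM in Klf4 libraries; their part in the Itgb3 result was not tested. Per length, Itgb3 in Klf4 libraries was 3.7% ± 0.708 of Itgav (SD, n = 4).

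Itgb5, whose product β5 is another αV partner, rose slightly from 50.4, 48.0, 46.7 and 51.0 CPM to 56.7, 53.9, 57.0 and 62.1 CPM (edgeR log2 fold change 0.23 ± 0.04 SE, adjusted p 0.000145). The groups did not overlap. Itgb6 and Itgb8, whose αV receptors bind latent TGF-β, did not pass the test. Itgb6 had a fitted log2 change of -0.20 (edgeR, SE 0.22, adjusted p 0.515). For Itgb8 it was -0.30 (edgeR, SE 0.19, adjusted p 0.249), and without Klf4-transfected replicate 3 it was -0.54 with an adjusted p of 0.0305. Itga8 had 0 to 7 counts per library.

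Of the 4 α subunit genes of collagen receptors, 1 rose, 1 fell and 2 did not pass the test, so 25.0% rose and 25.0% fell, beside 21.1% and 15.5% of all tested genes. Itga2, the α2 subunit of a collagen receptor of epithelia and platelets, fell from 3.70, 4.50, 4.08 and 3.79 CPM to 2.73, 2.89, 3.19 and 2.96 CPM, with no overlap (edgeR log2 fold change -0.45 ± 0.11 SE, adjusted p 0.00321). Itga11, the α11 subunit known from fibroblasts, rose from 0.191, 0.247, 0.284 and 0.186 CPM to 0.348, 0.795, 0.780 and 0.531 CPM (edgeR log2 fold change 1.41 ± 0.35 SE, adjusted p 0.00248). The counts behind this rise were few, 9 to 14 in control and 18 to 41 in Klf4 libraries. Itga1 (log2 fold change -0.21, SE 0.23) and Itga10 (0.13, SE 0.18) did not pass the test, with edgeR adjusted p of 0.531 and 0.604. Itga10 shares 1739 exonic bases with Gm42957, which had at most 1 count in any library.

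Among the integrins known from leukocytes, Itgb7 and Itgal rose, while the genes of their partners did not pass the test. Itgb7 (ENSMUSG00000001281, chromosome 15, 102215995 to 102231944, minus strand) encodes β7, which with α4 forms the gut-homing receptor of lymphocytes and with αE binds E-cadherin. It lay at 0.446, 0.493, 0.426 and 0.311 CPM in control and at 19.9, 18.3, 20.7 and 20.0 CPM in Klf4 libraries. The control libraries held 15 to 24 counts and the Klf4 libraries 829 to 1090, with no overlap and a ratio of 47.1 between the group means (edgeR log2 fold change 5.55 ± 0.11 SE, adjusted p 1.11e-20). Per length it went from 0.19% ± 0.0342 to 7.79% ± 0.36 of the summed integrin β level (SD, n = 4), behind Itgb1 and Itgb5. Its partners remained low per length: in Klf4 libraries Itgb7 stood at 7.12 ± 0.368 CPM per kilobase, Itga4 at 0.204 ± 0.059 and Itgae at 0.0592 ± 0.0232 (SD, n = 4). Neither partner passed the test, with a fitted log2 change of 0.12 (edgeR, SE 0.15, adjusted p 0.575) for Itga4 and -0.57 (SE 0.38, 0.262) for Itgae. Itga4 shares 1124 exonic bases with Cerkl on the other strand, a gene with 515 to 677 counts per library, which leaves its counts uncertain.

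Itgal encodes αL, which with β2 forms the leukocyte receptor of intercellular adhesion molecules. It rose from 2.44, 3.82, 2.78 and 2.42 CPM to 8.24, 8.77, 8.58 and 10.7 CPM, with no overlap (edgeR log2 fold change 1.66 ± 0.12 SE, adjusted p 2.31e-10). Itgb2, the β2 gene, lay at 0.425 to 0.994 CPM in control and 0.685 to 1.71 CPM in Klf4 libraries and did not pass the test (edgeR log2 fold change 0.52 ± 0.25 SE, adjusted p 0.111; 0.0445 without control replicate 2). Itgad, Itgam and Itgax, the other α partners of β2, had at most 16 counts in any library. Of 9 leukocyte markers, 6 were tested and 3 rose, Laptm5 (log2 fold change 1.16), Cd79a (0.35) and Coro1a (0.35), beside 21.1% of all tested genes. The 9 markers together summed to 19.1 to 23.7 CPM in control and 24.5 to 28.1 CPM in Klf4 libraries, and their part in the Itgal and Itgb7 results was not tested. Ptprc, the pan-leukocyte marker CD45, had 0 to 7 counts in control and 0 to 3 in Klf4 libraries. Itga9, whose α9 subunit is related to α4, had 4 to 22 and 15 to 29 counts in the 2 groups and did not pass the test (edgeR log2 fold change 0.69 ± 0.35 SE, adjusted p 0.137).

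**Figure D3:**
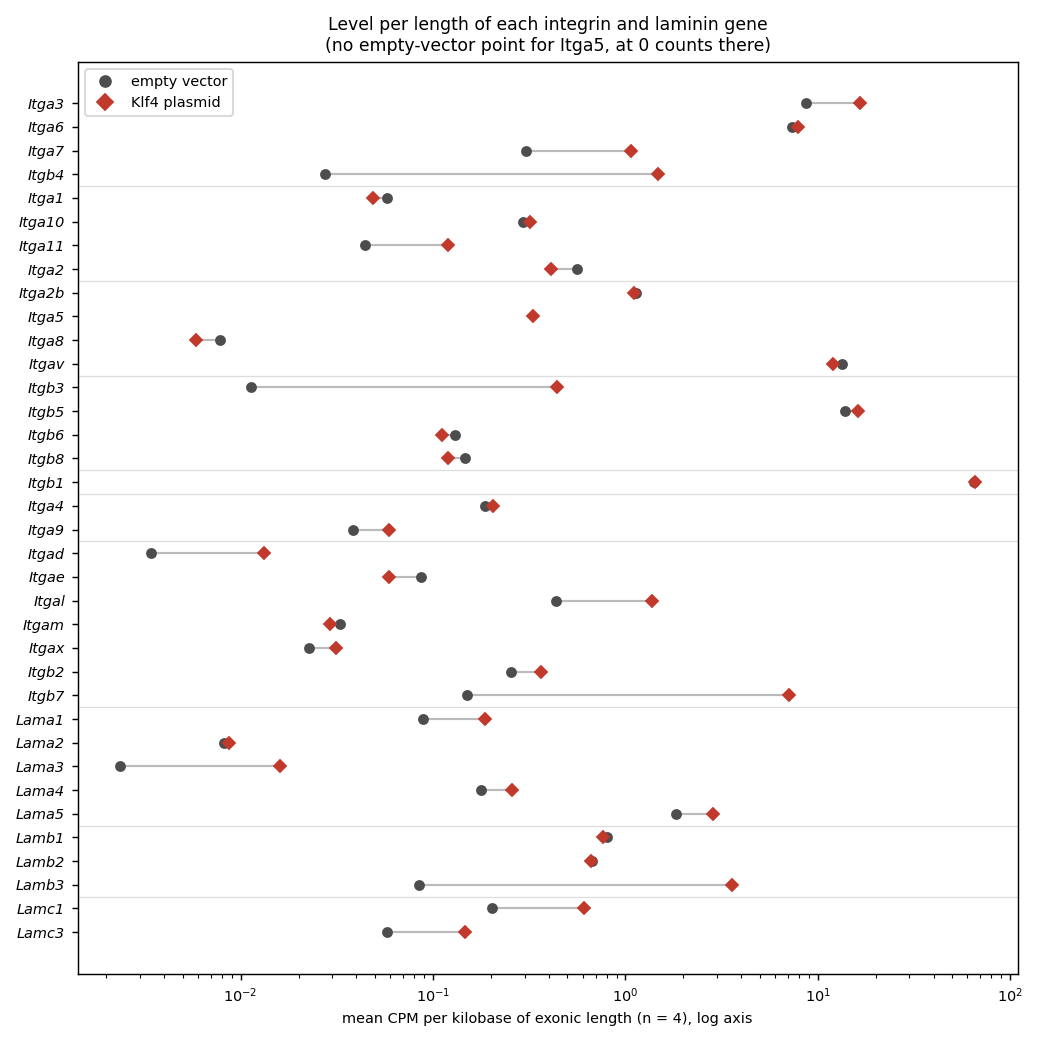
Mean level per length (x axis, CPM per kilobase of exonic length, log axis, n = 4) of each of the 36 genes (y axis, grouped by role) in control (grey circles) and Klf4 libraries (red diamonds). Itgb1 is highest in both groups at about 65.0 and 65.6; Itgb7 moved from 0.151 to 7.12 and Lamb3 from 0.0845 to 3.57.

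Laminin genes rose in each of the 3 chain classes, and the largest rise was that of Lamb3, the only β-chain gene of 3 that rose. Of the 8 tested laminin genes 6 rose, 75.0% against the 21.1% of all tested genes, and none fell. Lamb3 (ENSMUSG00000026639, chromosome 1, 193207699 to 193343878, plus strand) encodes β3, the chain of the laminin of stratified epithelia. It lay at 0.552, 0.740, 0.446 and 0.497 CPM in control and at 21.1, 21.3, 26.7 and 25.4 CPM in Klf4 libraries. The control libraries held 22 to 36 counts and the Klf4 libraries 964 to 1405, with no overlap. The ratio of means was 42.3 (edgeR log2 fold change 5.39 ± 0.11 SE, adjusted p 2.02e-20).

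The other β chains, of the laminins found in most basement membranes, did not pass the test. Lamb1 was at 7.96 ± 1.53 CPM in control and 7.62 ± 0.54 CPM in Klf4 libraries (SD, n = 4), an edgeR log2 fold change of -0.06 ± 0.09 (SE, adjusted p 0.69). Lamb2 was at 4.07 ± 0.394 and 4.01 ± 0.419 CPM (SD, n = 4), an edgeR log2 fold change of -0.02 ± 0.11 (SE, adjusted p 0.923). The make-up of the β class per length was different: Lamb3 held 5.56% ± 1.82 of the summed β-chain level in control and 71.3% ± 1.59 in Klf4 libraries (SD, n = 4). Lamb1 went from 51.3% ± 6.06 to 15.4% ± 1.28 of that sum.

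Among the γ chains, Lamc1 and Lamc3 rose. Lamc1, the γ1 chain of most laminins, rose from 1.53, 2.01, 1.18 and 1.99 CPM to 4.80, 4.64, 5.15 and 5.69 CPM (edgeR log2 fold change 1.59 ± 0.14 SE, adjusted p 5.47e-09). Lamc3, the γ3 chain, rose from 0.340, 0.411, 0.406 and 0.249 CPM to 1.05, 0.862, 0.913 and 0.740 CPM (edgeR log2 fold change 1.33 ± 0.27 SE, adjusted p 0.000369). Neither had overlapping groups. Per length, Lamc1 was at 0.203 ± 0.0485 CPM per kilobase in control and 0.613 ± 0.0562 in Klf4 libraries, and Lamc3 at 0.0577 ± 0.0124 and 0.146 ± 0.0208 (SD, n = 4).

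Of the α chains, Lama5 was the main one in both groups, with 86.2% ± 4.58 of the summed α-chain level per length in control and 85.9% ± 1.53 in Klf4 libraries (SD, n = 4). The α5 chain belongs to the laminins of the islet vessel wall and of most adult epithelia. Lama5 rose from 23.5, 27.0, 16.2 and 16.8 CPM to 33.1, 32.9, 30.4 and 32.8 CPM (edgeR log2 fold change 0.65 ± 0.08 SE, adjusted p 4.44e-07). Lama1, the α1 chain of early embryonic basement membranes, rose from 0.701, 0.575, 1.16 and 0.994 CPM to 1.45, 1.59, 2.21 and 1.97 CPM (edgeR log2 fold change 1.09 ± 0.18 SE, adjusted p 4.63e-05). Lama4, the α4 chain of vessels, rose from 1.76, 2.14, 2.21 and 2.47 CPM to 3.31, 2.61, 2.85 and 3.58 CPM (edgeR log2 fold change 0.53 ± 0.14 SE, adjusted p 0.00385). These 3 genes had no overlap between groups.

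Lama3, the α3 chain that assembles with β3, remained near the floor. It had 0, 2, 3 and 0 counts in control and 15, 7, 4 and 9 in Klf4 libraries, that is 5 counts in all against 35, and did not pass the filter. The groups did not overlap, and without a filter the fitted log2 change was 2.58 (edgeR, SE 0.83, adjusted p 0.0103). Per length, in Klf4 libraries Lama3 stood at 0.0161 ± 0.00824 CPM per kilobase and Lamb3 at 3.57 ± 0.435 (SD, n = 4), so the RNA of these partner chains was present in unequal amounts. Lama2, the α2 chain of muscle, had 1 to 12 counts in control and 5 to 11 in Klf4 libraries.

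**Figure D4:**
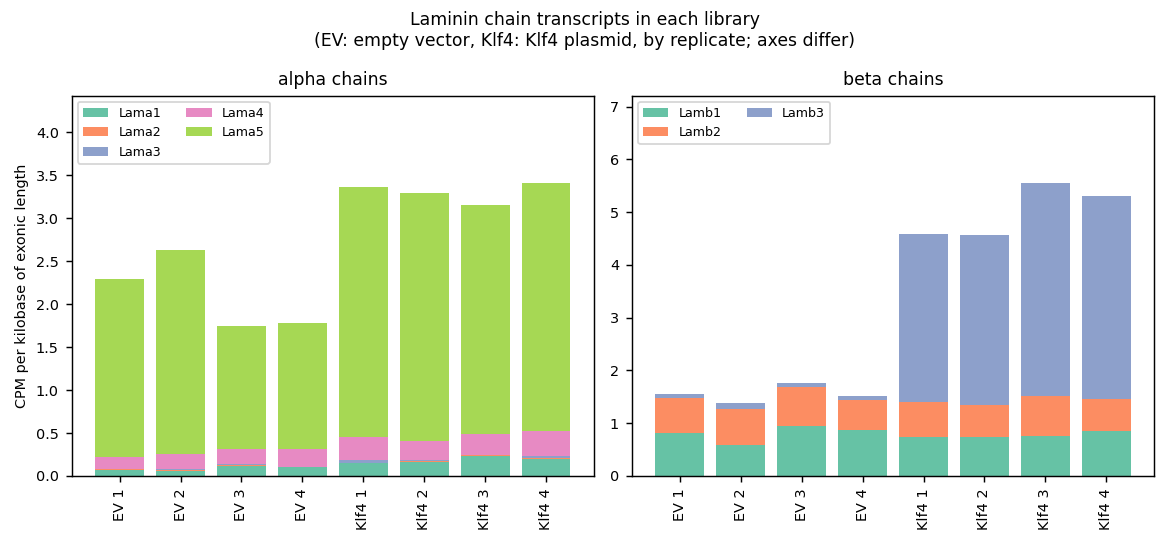
Stacked level per length (y axis, CPM per kilobase of exonic length, from 0, scales differ) of the laminin α and β chain genes in each control and Klf4 library (x axis). Lamb3 is a thin band in control libraries and 69.6% to 72.8% of the β-chain sum in Klf4 libraries, while Lama5 makes up most of the α sum in both.

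The genes that work with these receptors and chains were also examined, from 4 lists. Of 9 laminin anchors other than integrins, all tested, 6 rose and 1 fell (21.1% and 15.5% of all tested genes), with a median log2 fold change of 0.24 beside -0.01 over all tested genes. Plec, the plectin that ties β4 to keratins, rose by 1.10 (edgeR, SE 0.06, adjusted p 2.11e-12), and the syndecan genes Sdc1 and Sdc4 each by 1.00 (edgeR adjusted p 1.28e-14 and 6.33e-13). Col17a1, the transmembrane collagen of hemidesmosomes, rose by 0.48 (edgeR, SE 0.16, adjusted p 0.0198) with overlapping groups, and Rpsa, a ribosomal protein also described as a laminin receptor, fell by 0.09 (0.0199). Without the batch term 3 of these genes were called higher and 0 lower.

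Of 22 other basement membrane components 19 were tested, 11 rose and 1 fell (21.1% and 15.5% of all tested genes), with a median of 0.45 on the log2 scale. Hspg2, which encodes the heparan sulfate proteoglycan perlecan, rose from 2.34 ± 0.849 to 55.0 ± 11.1 CPM (SD, n = 4), an edgeR log2 fold change of 4.54 ± 0.13 (SE, adjusted p 1.28e-17). Nid1, the nidogen that bridges laminin and collagen IV, had 0 to 4 counts in control and 39 to 106 in Klf4 libraries (edgeR log2 fold change 5.27 ± 0.43 SE, adjusted p 9.98e-10). Smoc2 had no counts in control and 22 to 32 in Klf4 libraries, at least 8.06-fold above the floor, and the netrin gene Ntn4 rose by 3.47 (edgeR, SE 0.46, adjusted p 1.96e-06). Fras1 fell by 0.23 (edgeR, SE 0.05, adjusted p 0.00072).

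Of 21 integrin ligands other than laminins 13 were tested, 8 rose and 1 fell (21.1% and 15.5% of all tested genes), with a median of 0.88. Ltbp1, Ccn3, Fbn1 and Mfge8 rose most, by 4.92, 3.78, 3.58 and 2.19 on the log2 scale (edgeR adjusted p 3.87e-08, 7.13e-10, 1.3e-08 and 8.57e-14). Mfge8, an RGD protein bound by αV receptors, was at 3.21 ± 0.543 CPM in control and 14.6 ± 1.75 CPM in Klf4 libraries (SD, n = 4). Edil3, another RGD protein, fell by 0.25 (edgeR adjusted p 0.00215). Fn1, the fibronectin gene whose product α5β1 binds, had 1 to 10 counts in control and 3 to 10 in Klf4 libraries and was not tested.

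Of 43 adaptors and signalling proteins of integrin tails 40 were tested, 23 rose and 2 fell (21.1% and 15.5% of all tested genes), with a median of 0.11. Most of the rises were small. Only 4 of the 40 were called higher by at least 1 on the log2 scale, beside 8.5% of all tested genes. Tns1, whose tensin binds β tails and actin, had 4 to 9 counts in control and 490 to 852 in Klf4 libraries (edgeR log2 fold change 6.48 ± 0.14 SE, adjusted p 6.38e-20). Cd9, a tetraspanin that associates with laminin-binding integrins, rose from 0.258 ± 0.12 to 8.19 ± 1.29 CPM (SD, n = 4), an edgeR log2 fold change of 4.97 ± 0.17 (SE, adjusted p 1.22e-16). Lims2 rose by 2.14 and Tns4 by 1.46 on the log2 scale (edgeR adjusted p 1.05e-10 and 1.48e-05), while Lims1 and Tns3 each fell by 0.12 (0.0366 and 0.00462). The groups overlapped for Tns4, Lims1 and Tns3, and for Rpsa, Fras1 and Edil3 in the lists above.

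Markers of other cell types in which these genes are known moved as well. Over all tested genes, 21.1% were called higher and 15.5% lower. Of 7 ductal and stratified epithelial markers 4 were tested and rose, Krt14 by 11.55, Krt19 by 3.76, Epcam by 0.35 and Krt7 by 0.33 on the log2 scale, and the sum of the 7 markers went from 62.4 to 94.5 CPM in control to 108 to 140 CPM in Klf4 libraries; Krt14 had at most 1 count in a control library, so its fitted value is no bound. Of 6 stromal markers 3 were tested and rose, Dcn, Pdgfra and Col1a1. The 6 summed to 1.51 to 2.67 CPM in control and 19.7 to 26.0 CPM in Klf4 libraries, where Dcn alone averaged 17.6 CPM. Pdgfrb and Col3a1 did not pass the filter, and Lum was at 0 in every library. Of 6 endothelial markers 4 were tested and 2 rose, Cdh5 and Tie1. The 6 summed to 4.10 to 4.48 CPM in control and 6.03 to 6.63 CPM in Klf4 libraries. Most of this was Pecam1, which did not pass the test and averaged 3.97 and 4.34 CPM in the 2 groups. Kdr had 0 counts in control and at most 2 in a Klf4 library. The part of these markers in the laminin and integrin results was not tested.

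The change had the same sign in both batches for each of the 18 members that rose or fell. Since these members were called from the same libraries, the shared sign is no separate check. The size of the change differed between batches for 2 members, Lama5 and Itga3 (0.766% of all tested genes; edgeR interaction test). Lama5 rose by 0.39 in batch 1 and 0.93 in batch 2 (difference 0.55, SE 0.10, edgeR adjusted p 0.00236), and Itga3 by 0.71 and 1.12 (difference 0.41, SE 0.07, edgeR adjusted p 0.000857). For Lama5 the batches differed in the control libraries, where batch 1 gave 23.5 and 27.0 CPM and batch 2 gave 16.2 and 16.8, while the Klf4 libraries lay between 30.4 and 33.1 CPM. For Itga3 they differed mainly in the Klf4 libraries, where batch 1 gave 84.8 and 83.6 CPM and batch 2 gave 102 and 106. The control libraries differed less and the other way, with 53.2 and 49.6 CPM in batch 1 and 47.0 and 48.5 in batch 2. Klf4 itself rose by 6.79 in batch 1 and 7.16 in batch 2. Itgb4 (5.03 and 6.75) and Itga7 (1.48 and 2.26) also had larger values in batch 2, but these differences did not pass the test (edgeR adjusted p 0.151 and 0.0637). In control, Itgb4 lay at 0.404 and 0.164 CPM in batch 1 and at 0.122 and 0.0829 in batch 2. Itga7 control libraries gave 3.21 and 3.10 CPM in batch 1 and 1.72 and 1.80 in batch 2, while its Klf4 libraries lay between 7.82 and 9.27 CPM. Of the 16 members that rose, 12 had a larger value in batch 2, while Lama1, Lama4, Lamc3 and Itgb3 had a smaller one.

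**Figure D5:**
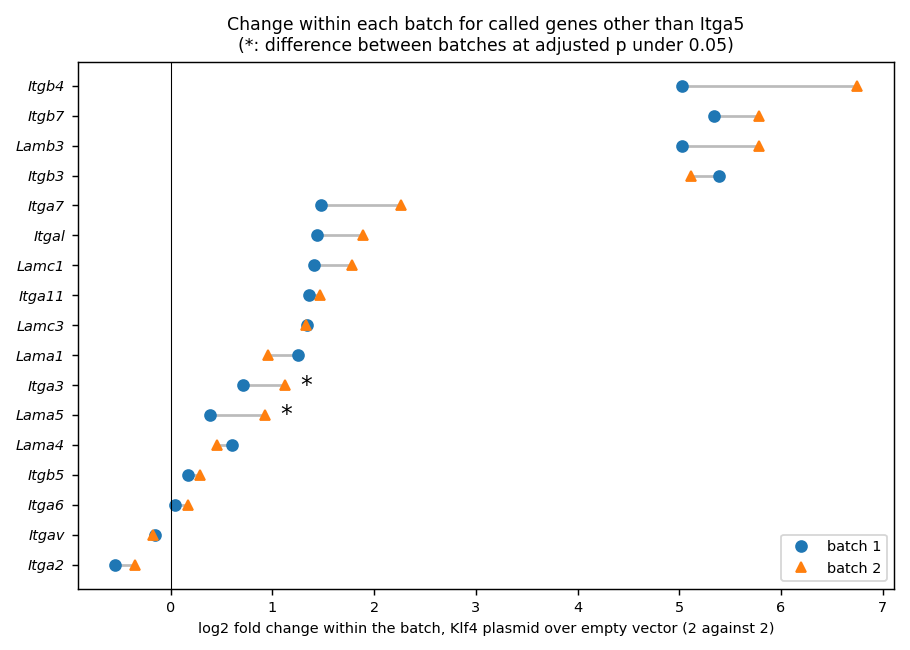
Log2 fold change within batch 1 (circles) and batch 2 (triangles), on the x axis, for the 17 called members other than Itga5 (y axis), each from 2 against 2 libraries. The 2 points of a gene lie on the same side of 0 throughout, for genes that were called from these same libraries. Stars mark Lama5 and Itga3, whose batches differed.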

How the data were processed

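Polyadenylated RNA was sequenced from 8 MIN6 libraries. The values are raw read counts per gene, deposited by the authors with 1 column per library. Reads were trimmed with cutadapt, per the deposited table's own name. FastQC, STAR, featureCounts, edgeR and the mm10 build are listed in the submitters' processing notes, with no versions, and the strand setting is not given in the sources used here. The 55536 pairs of identifier and symbol were those of GENCODE M21, which gave coordinates and exonic lengths.

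Counts were analysed in edgeR 4.0.16 (limma 3.58.1, DESeq2 1.42.0, R 4.3.3; figures in Python 3.11.15). filterByExpr (minimum count 10) kept 18266 genes, TMM scaled the libraries, and glmQLFit with batch and plasmid was followed by glmQLFTest with Benjamini-Hochberg adjustment over all tested genes (threshold 0.05). An interaction fit gave within-batch effects. CPM are TMM-scaled. Levels per length divide CPM by the kilobases of all annotated exons of a gene, which can exceed the length of the transcripts expressed. Alternatives were other scalings, filters, tests, a replicate block and each library left out. Deviations from group means correlated at 0.46 to 0.61 between same-numbered libraries (10485 genes), the numbers being nested in the labelled batches. Differently numbered libraries of the same batch correlated at 0.46 to 0.57. The batch difference was not removed first, so this check cannot decide whether libraries were paired within a batch. In simulated counts of 17267 genes, most of them left unchanged, 39 of 40 genes raised by 1 on the log2 scale were recovered (97.5%). Of those raised by 0.5, 29 of 37 were recovered (78.4%). The raised genes were drawn above a minimum average level, with spread from a smooth trend, so these shares do not cover the members of lowest level.

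The symbol rule matches 37 rows, of which 1 is not reported here. Every other member was accounted for, with library values for those changed by at least 1 on the log2 scale and the 3 highest per length in control. From the lists, up to 4 higher and 4 lower called genes of largest change were named; other list genes were chosen after their values were seen. The members and lists were chosen with earlier results of these data known.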

Additional observations from a re-analysis of the deposited data

Results flagged for a closer look

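A check for 1 library far from the other 3 of its group was made 60 times on the tested members and singled out 3, where chance gives about 3. Itgb8 lay at 1.88 CPM in Klf4-transfected replicate 3, above the 1.10 to 1.18 CPM of the others. Lama5 was at 30.4 CPM in Klf4-transfected replicate 3, below the 32.8 to 33.1 CPM of the others. Lamb1 was at 8.42 CPM in Klf4-transfected replicate 4, above 7.26 to 7.44 CPM.

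Batches 1 and 2 gave different log2 fold changes for 2 members by edgeR's interaction test. The difference of the log2 fold changes, batch 2 minus batch 1, was 0.55 for Lama5 (adjusted p 0.00236) and 0.41 for Itga3 (adjusted p 0.000857).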

How the results depend on the processing

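Of the 18 called members, 17 were called in the same direction under each of the 17 alternatives in which they were tested, and the exception was Itga6. The number of members called higher ranged from 14, with at least 1 CPM required in at least 4 libraries, to 17 with no filter, and was 15 to 17 when a library was left out. The number called lower was 2, or 3 without Klf4-transfected replicate 3. With the replicate block in place of batch, 16 members were higher and 2 lower, and it changed no member's call. Over all genes, 6684 were called, against 4116 without the batch term, where 71.8% of calls were higher; lower calls were 2828, against 1159 without that term and 1638 with scaling from genes of high level.

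Signs turned only for members that had not passed the test. Lamb2 was at 0.02 with scaling from genes of high level, and between -0.11 and 0.03 when a library was left out. On the same omissions Itga2b ranged from -0.10 to 0.01, Itga10 from -0.02 to 0.20 and Itgb1 from -0.03 to 0.03. In the lists, the laminin anchors had 3 higher calls and 0 lower without the batch term, 0 lower with scaling from genes of high level and 2 lower with no filter. Basement membrane components had 7 higher calls with the CPM filter, which tests fewer genes. Integrin ligands had 0 lower calls without the batch term. Tail adaptors had 0 lower calls without that term, and 1 with either the scaling from genes of high level or the CPM filter. Their higher calls, 23 in the main fit, were 16 without the batch term and 19 to 21 when a library was left out. When a library was left out, lower calls ranged from 1 to 2 for the anchors (2 without control replicate 1 or 4), from 1 to 2 for the ligands (2 without control replicate 2) and from 1 to 3 for the tail adaptors (1 without control replicate 3 or Klf4-transfected replicate 4). The cause was not tested. The 6 members below the filter on low counts were left out by that choice of filter.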
